A study of Homo sapiens with 6 samples.

Results

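The genes described here are the collagen chains and the enzymes and helper proteins that process collagen, measured in HT1080, an established human fibrosarcoma line. They are all genes on the array whose symbol is COL, a number, A and a number, together with 13 processing genes (P4HA1, P4HA2, P4HB, PLOD1, PLOD2, PLOD3, LOX, LOXL1, LOXL2, SERPINH1, BMP1, PCOLCE and ADAMTS2). This gave 45 genes, 32 chains and 13 processing genes, of 11963 genes that a probe set names alone. Of the 45, 28 (16 chains and 12 processing genes) had a mean signal above the filter and were among the 8045 genes tested, and the other 17 were dim and are described separately at the end.

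The cells had been transfected with the pGUS vector in all 3 groups of 2 arrays. The vector expressed GFP alone in the mock group, GFP and an siRNA against MT1-MMP mRNA in the second group, and GFP and an siRNA against integrin alpha3 mRNA in the third, so GFP and the vector are shared by all groups. Since mock carried no siRNA, in the comparisons against mock the loss of a target and the expression of any siRNA cannot be told apart. MMP14 encodes MT1-MMP, a protease held in the cell membrane that cleaves fibrillar collagen, and ITGA3 encodes integrin alpha3, which forms a laminin receptor together with integrin beta1. The labels do not say whether a group's 2 arrays hold RNA of separate cultures, or whether the cells were a clone or a pool, so the p-values cover no more than the spread of these arrays, possibly a technical one.

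Signals are the deposited intensities per probe set, on a linear scale, with median signals between 72.9 and 83.1 per array, and 2 arrays per group limit the precision. MMP14 gave 1971 and 3064 in mock, 812 and 717 under MT1-MMP siRNA, and 999 and 1804 under alpha3 siRNA. ITGA3 had 1139 and 1290 in mock, 1481 and 1634 under MT1-MMP siRNA, and 148 and 347 under alpha3 siRNA. Each target was thus lowest in the group that carried its siRNA. For MMP14 both alpha3 siRNA arrays also lay below both mock arrays (log2 fold change -0.86, limma adjusted p = 0.851). Of 9 mesenchymal markers, 8 were above the filter, and their summed signal was 17490 to 21110 on the mock arrays, 25750 to 32290 under MT1-MMP siRNA and 16320 to 19360 under alpha3 siRNA. Most of this sum was VIM and FN1, and with MT1-MMP siRNA against mock 5 of the 8 were above 0 (FN1 at 1.75) and 3 below (SNAI2, S100A4 and THY1), with a median log2 fold change of 0.16. Of 8 epithelial markers, KRT8 and KRT18 were above the filter while CDH1 and EPCAM were below it, and the summed signal was 3055 to 3295, 2312 to 2746 and 4245 to 4648 in the same order of groups. KRT18 and KRT8 made up most of this sum. With alpha3 siRNA against mock they were at 0.33 and 1.07, while CDH1 and KRT5, both below the filter, had log2 differences of -0.65 and -0.33. Of 6 chondrocyte markers, ACAN and SOX9 were above the filter, with sums, mostly SOX9, of 977 to 1136, 1666 to 1835 and 1057 to 1150. Of 6 smooth muscle and pericyte markers ACTA2 and TAGLN were, with sums, mostly ACTA2, of 532 to 725, 915 to 1139 and 385 to 807. These 2 markers were at 0.77 and 0.37 with MT1-MMP siRNA against mock. They went opposite ways with alpha3 siRNA against mock (ACTA2 -0.47, TAGLN 1.19) and between the siRNAs (1.24 and -0.81). Of 6 endothelial markers, PECAM1 and ENG were above the filter and CDH5, VWF, TEK and KDR below it. Of 5 leukocyte markers on the array, CD3E and LAPTM5 were above the filter and PTPRC, CD14 and ITGB2 below it. The endothelial and leukocyte sums overlapped between mock and MT1-MMP siRNA. The 18 spiked hybridisation controls, which are added to the sample and do not come from the cells, had a median of 2.30 and 1.29 times the mock mean on the MT1-MMP siRNA arrays and of 0.812 to 1.07 times on the other 4 arrays. The part of these differences in the results on collagen genes was not tested, and in such bulk RNA fewer cells of a type and less RNA per cell cannot be told apart.

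Collagens are built from 3 chains wound into a triple helix. Prolyl 4-hydroxylases modify the chains in the endoplasmic reticulum so that the helix is stable, lysyl hydroxylases prepare them for cross-linking, and the chaperone HSP47 (SERPINH1) escorts them. Outside the cell, proteases such as BMP1 and ADAMTS2 trim the propeptides of fibrillar collagens, and lysyl oxidases cross-link the fibres. Fibrillar collagens give tissues tensile strength, collagen IV forms the network of basement membranes, and collagen VI forms beaded filaments around cells.

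With MT1-MMP siRNA against mock, the collagen genes lay mostly higher. The 11 with an unadjusted p under 0.05 were the chains COL4A1, COL6A1, COL6A2, COL6A3, COL13A1 and COL18A1 and the processing genes P4HA1, P4HA2, P4HB, LOXL2 and BMP1. Over the 28 genes the median log2 fold change was 0.52, against 0.00 over all genes tested, and 24 of the 28 (85.7%) were above 0, against 50.3% of all genes. Fold changes are on the scale of log2(signal + 32), which understates changes of dim genes. No gene of the array passed the threshold, a Benjamini-Hochberg adjusted p under 0.05 in limma over the 8045 genes (0 called, 0%), so 0 of the 28 were called, with a lowest adjusted p of 0.153 among them. At an unadjusted p under 0.05, 11 of the 28 (39.3%) were higher and 0 were lower, against 6.76% of all genes higher and 7.66% lower. Both MT1-MMP siRNA arrays lay above both mock arrays for 18 of the 28 (64.3%) and below them for 0, against 24.6% and 25.3% of all genes. The median was 0.32 without mock replicate 1 and 0.30 over all 45 genes without the filter, and the count at an unadjusted p under 0.05 was 4 without MT1-MMP siRNA replicate 1. The filter uses the mean over all arrays, and among the 23 genes above it in all 3 group means the median was 0.56 and 10 were higher at an unadjusted p under 0.05.

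Collagen VI, whose main form joins the products of COL6A1, COL6A2 and COL6A3, was higher on both MT1-MMP siRNA arrays than on both mock arrays for all 3 chains. COL6A1 gave 385 and 271 in mock, 658 and 857 under MT1-MMP siRNA, and 460 and 471 under alpha3 siRNA. On this probe set the 3 groups did not overlap, with mock lowest and MT1-MMP siRNA highest. The log2 fold change with MT1-MMP siRNA against mock was 1.14 (SE 0.23, limma adjusted p = 0.153), and the 3 probe sets of COL6A1 above the filter gave 0.85 to 1.22. COL6A2 had 205 and 135 in mock, 400 and 322 under MT1-MMP siRNA, and 236 and 182 under alpha3 siRNA. Its log2 fold change was 0.98 (SE 0.24, limma adjusted p = 0.180), but its other probe set above the filter gave 0.17. COL6A3, the largest of these chains, had 4100 and 5794 in mock, 6685 and 7064 under MT1-MMP siRNA, and 3801 and 4862 under alpha3 siRNA. The mock and alpha3 siRNA arrays overlapped for COL6A3, and the log2 fold change with MT1-MMP siRNA was 0.49 (SE 0.20, limma adjusted p = 0.322), 0.25 without mock replicate 1.

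**Figure D1:**
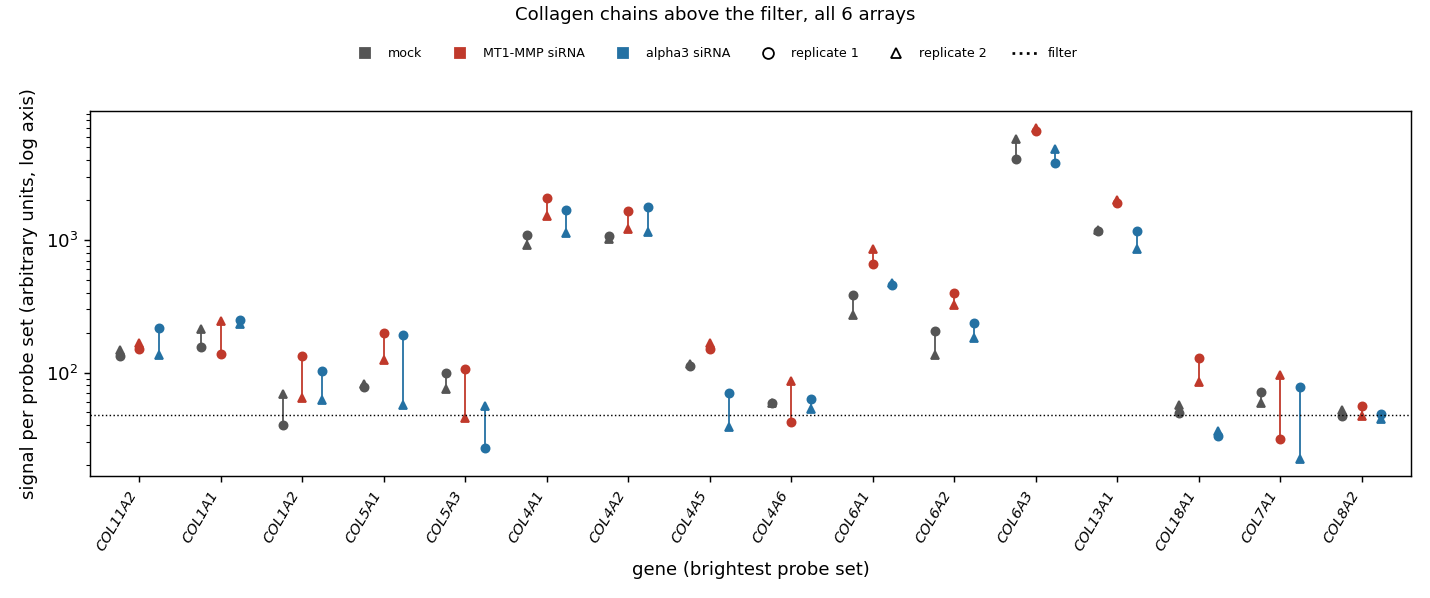
Signal per probe set (log axis, arbitrary units) of the 16 collagen chains above the filter on all 6 arrays, coloured by group, with a circle for replicate 1, a triangle for replicate 2 and a line joining the 2 arrays of a group. The dotted line is the filter at a signal of 47.5, and the MT1-MMP siRNA arrays of COL4A5, COL6A1, COL6A2, COL6A3, COL13A1 and COL18A1 lie above the arrays of both other groups.

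The collagen IV genes lie in head-to-head pairs in the genome, so that both genes of a pair are transcribed outward from 1 short stretch. That of COL4A1 and COL4A2, the chains of the common basement membrane network, spans 126 bases between the start sites in RefSeq's promoter table for GRCh38.p14 (chr13:110307158-110307283, plus strand, with COL4A1 read from the minus strand and COL4A2 from the plus strand). It is shown because both genes were measured here and may share it, with its match to CCAAT in capitals (searched on both strands). CCAAT was found in the promoter windows of 35.7% of all genes, but those windows hold 300 bases and are longer than this stretch.
COL4A1-COL4A2: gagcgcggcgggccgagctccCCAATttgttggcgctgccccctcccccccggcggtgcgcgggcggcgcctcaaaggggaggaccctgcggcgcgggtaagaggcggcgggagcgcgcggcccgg

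COL4A1 gave 1093 and 922 in mock, 2076 and 1526 under MT1-MMP siRNA, and 1696 and 1137 under alpha3 siRNA. COL4A2 had 1082 and 1019 in mock, 1653 and 1217 under MT1-MMP siRNA, and 1766 and 1157 under alpha3 siRNA. On these probe sets all 4 siRNA arrays were above both mock arrays, and the 2 siRNA groups overlapped. For COL4A1 the log2 fold change with MT1-MMP siRNA was 0.81 (SE 0.25, limma adjusted p = 0.220), and its other probe set above the filter gave 0.44. That probe set did not separate alpha3 siRNA (830 and 391) from mock (582 and 560), with a log2 difference of 0.002. COL4A5, an X-linked chain, had another order, with 112 and 116 in mock, 150 and 168 under MT1-MMP siRNA, and 70.6 and 38.6 under alpha3 siRNA. Its 3 groups did not overlap, with alpha3 siRNA lowest. COL4A6, which starts 379 bases from COL4A5 on the opposite strand, was at 59.3 and 58.4, 42.4 and 86.3, and 62.6 and 53.5 in the same order of groups, and all 3 groups overlapped. Of this second pair COL4A5 alone lay apart between groups.

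Among the remaining chains, COL13A1, a transmembrane collagen found at cell contacts, had 1180 and 1186 in mock, 1900 and 2023 under MT1-MMP siRNA, and 1171 and 861 under alpha3 siRNA. The mock arrays were nearly equal, and the log2 fold change with MT1-MMP siRNA was 0.71 (SE 0.20, limma adjusted p = 0.201), with all 3 probe sets between 0.69 and 0.93. COL18A1, whose C-terminal fragment is endostatin, an inhibitor of vessel growth, had 49.2 and 56.5 in mock, 128 and 85.2 under MT1-MMP siRNA, and 33.2 and 36.0 under alpha3 siRNA. It passed the filter through the groups where it was higher, since its alpha3 siRNA mean was below the filter, and its log2 fold change with MT1-MMP siRNA was 0.69 (SE 0.25, limma adjusted p = 0.281). COL7A1, the chain of anchoring fibrils under the epidermis, and COL8A2, a network-forming chain of the corneal membrane, overlapped between all groups, with signals from 22.2 to 95.9 and from 44.6 to 55.4.

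Of the 5 fibrillar chains above the filter, 0 had an unadjusted p under 0.05 in any of the 3 comparisons. COL1A2, a chain of collagen I, had 40.2 and 69.3 in mock, 134 and 63.8 under MT1-MMP siRNA, and 102 and 62.5 under alpha3 siRNA. COL1A1, the main chain of collagen I, had 156 and 211, 138 and 246, and 250 and 232 on its probe set above the filter, which is of the _x_at type that can also bind other transcripts. The other 3 probe sets of COL1A1 were below the filter, with signals from 4.3 to 62.2. COL5A1, a chain of the collagen V that nucleates fibrils, had 77.3 and 82.2, 198 and 125, and 193 and 57.2, so its alpha3 siRNA arrays lay on either side of the mock pair. COL5A3, another collagen V chain, was at 75.4 to 99.7, 45.6 to 106 and 26.7 to 55.8, and COL11A2, mainly a cartilage chain, at 134 to 149, 151 to 167 and 135 to 217. For COL5A1 and COL11A2 both MT1-MMP siRNA arrays lay above both mock arrays, in COL11A2 by a small margin, and for COL1A1 both alpha3 siRNA arrays did. For COL5A3 both alpha3 siRNA arrays lay below both mock arrays (log2 fold change -0.73), and its alpha3 siRNA mean was below the filter. COL3A1 and COL5A2, the other fibrillar chains usual in fibroblasts, were dim.

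Of the 12 processing genes above the filter, 10 were above 0 with MT1-MMP siRNA against mock, with a median log2 fold change of 0.69, and 5 of them were higher at an unadjusted p under 0.05, against 6.76% of all genes. The prolyl 4-hydroxylase genes were all 3 higher on both MT1-MMP siRNA arrays than on both mock arrays. P4HA1, the main catalytic subunit in most cells, gave 838 and 973 in mock, 2143 and 1912 under MT1-MMP siRNA, and 949 and 527 under alpha3 siRNA. The mock and alpha3 siRNA arrays overlapped and both MT1-MMP siRNA arrays stood above them. The log2 fold change with MT1-MMP siRNA against mock was 1.14 (SE 0.27, limma adjusted p = 0.165). P4HA2, the second catalytic subunit, had 551 and 842 in mock, 2569 and 1192 under MT1-MMP siRNA, and 947 and 342 under alpha3 siRNA. Its log2 fold change was 1.32 (SE 0.49, limma adjusted p = 0.281), 0.78 without MT1-MMP siRNA replicate 1. P4HB, protein disulfide isomerase and the shared beta subunit, had 4430 and 4857 in mock, 6760 and 5502 under MT1-MMP siRNA, and 4909 and 4124 under alpha3 siRNA, a log2 difference of 0.39 (SE 0.17, limma adjusted p = 0.346) that was 0.25 without MT1-MMP siRNA replicate 1.

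With MT1-MMP siRNA the lysyl hydroxylases were less separated from mock. PLOD1, which modifies lysines in the helix, had 290 and 422 in mock, 586 and 412 under MT1-MMP siRNA, and 353 and 288 under alpha3 siRNA. PLOD2, which modifies the telopeptide lysines used for stable cross-links, had 1424 and 2807, 4478 and 1949, and 1451 and 728. Its MT1-MMP siRNA arrays differed 2.30-fold from each other and overlapped with the mock pair. They also overlapped on its other probe set above the filter, with a log2 difference of 0.79. On that probe set both alpha3 siRNA arrays (859 and 577) lay below both mock arrays (1104 and 1863), with a log2 difference of -0.99, against -0.94 on the brightest. PLOD3, which also adds sugars to hydroxylysine, had 961 and 983, 1053 and 1226, and 1162 and 1037, so all 4 siRNA arrays were above both mock arrays by small amounts.

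The lysyl oxidases, which start cross-linking by oxidising lysines, did not share 1 pattern. LOX had 616 and 2853 in mock, 1335 and 1136 under MT1-MMP siRNA, and 518 and 273 under alpha3 siRNA, and its mock arrays differed 4.63-fold, the widest mock pair of the 28 genes. The MT1-MMP siRNA arrays lay between the 2 mock arrays and the alpha3 siRNA arrays below both. LOXL1, which is needed for elastic fibres, had 261 and 623, 795 and 684, and 210 and 304, with both MT1-MMP siRNA arrays above the mock pair. LOXL2, which also cross-links collagen IV, had 2657 and 2513, 5739 and 3864, and 3089 and 1849, a log2 difference with MT1-MMP siRNA against mock of 0.86 (SE 0.27, limma adjusted p = 0.230) with its other probe set above the filter at 1.08.

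Of the genes that escort or trim procollagen, SERPINH1 had 1036 and 1133 in mock, 1492 and 727 under MT1-MMP siRNA, and 2280 and 1112 under alpha3 siRNA, and all groups overlapped. BMP1, which removes the C-propeptide and was read from an _x_at probe set, had 174 and 153, 490 and 255, and 235 and 126, a log2 difference with MT1-MMP siRNA of 0.99 (SE 0.34, limma adjusted p = 0.260), 0.56 without MT1-MMP siRNA replicate 1, and its 3 probe sets above the filter gave 0.29 to 0.99. ADAMTS2, which removes the N-propeptide, had 23.4 and 14.1 in mock, 146 and 98.2 under MT1-MMP siRNA, and 380 and 16.0 under alpha3 siRNA. Its alpha3 siRNA arrays differed 23.7-fold, and its mock mean was below the filter, so it passed through the other groups. PCOLCE, an enhancer of BMP1, was dim.

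**Figure D2:**
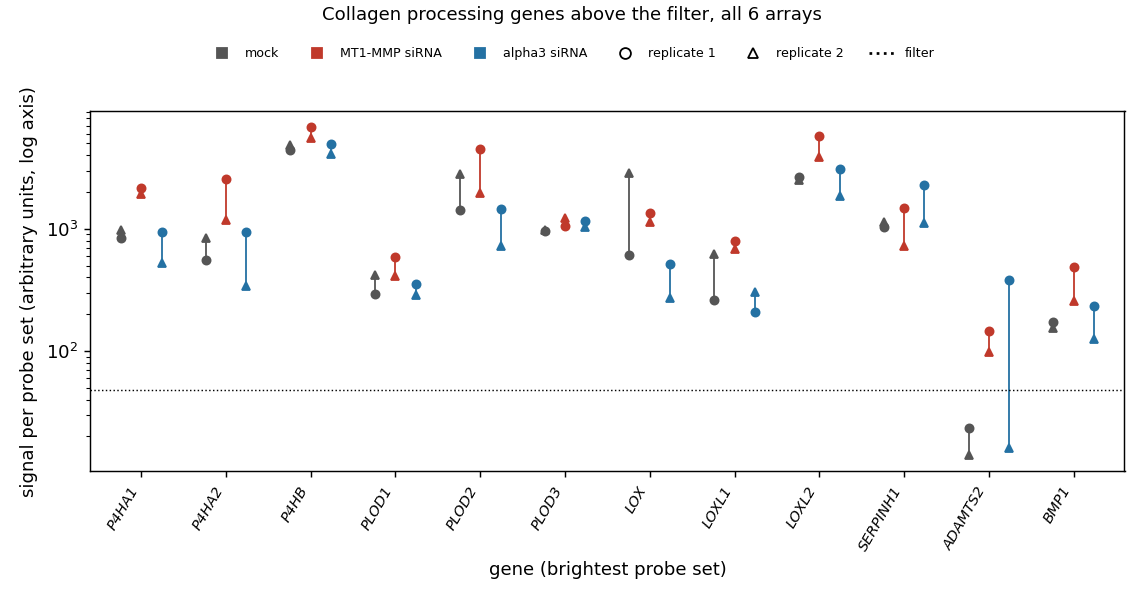
Signal per probe set (log axis, arbitrary units) of the 12 processing genes above the filter on all 6 arrays, coloured by group, with a circle for replicate 1, a triangle for replicate 2 and a line joining the 2 arrays of a group; the dotted line is the filter at 47.5. The MT1-MMP siRNA arrays of P4HA1 (2143 and 1912) stand above all 4 other arrays, while the mock arrays of LOX (616 and 2853) and the alpha3 siRNA arrays of ADAMTS2 (380 and 16.0) lie far apart.

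With alpha3 siRNA against mock, the collagen genes lay on either side of 0. The 2 comparisons against mock share the mock arrays. The median log2 fold change was -0.05 over the 28 genes and -0.01 over all genes, and 12 of the 28 were above 0 (42.9%, against 48% of all genes). In limma 2 of the 8045 genes were called (0.0249%), neither of them a collagen gene, and the lowest adjusted p among the 28 was 0.851. At an unadjusted p under 0.05, 0 were higher and 2 were lower, COL4A5 and LOX, which is 7.14% of the 28 against 3.22% of all genes lower, 2.51% higher and 5.73% in either direction. COL4A5 was at -0.78 (SE 0.24, limma adjusted p = 0.851), -0.51 without alpha3 siRNA replicate 2. LOX had -1.74 (SE 0.60, limma adjusted p = 0.851), with its 3 probe sets between -1.74 and -1.26, and its value without mock replicate 2 was -0.66, and -2.82 on leaving out replicate 1 instead. The alpha3 siRNA arrays lay above both mock arrays for 5 of the 28 (17.9%, against 16.4% of all genes) and below them for 5 (17.9%, against 18%). ADAMTS2 was called only on leaving out alpha3 siRNA replicate 2 (log2 fold change 3.03, limma adjusted p = 0.0323), while without replicate 1 of that group it was at -0.07. Without alpha3 siRNA replicate 2 the median of the 28 genes was 0.22 and 6 had an unadjusted p under 0.05, against -0.21 without replicate 1, and the count was 0 without mock replicate 2.

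Between the 2 siRNA groups, 1 collagen gene differed past the threshold. P4HA1 was higher with MT1-MMP siRNA (2027 ± 163, SD, n = 2) than with alpha3 siRNA (738 ± 299, SD, n = 2), by 1.47 on the log2 scale (SE 0.27, limma adjusted p = 0.0425). In this comparison 112 of the 8045 genes were called (1.39%). The call was lost in 9 of 17 alternative analyses, among them every one that left out 1 array except that without alpha3 siRNA replicate 1, with log2 fold changes between 1.07 and 1.88 and adjusted p between 0.0322 and 0.268 over all of them. Of the 28 genes, 24 were above 0 (against 51.9% of all genes) and the median was 0.55, against 0.02 over all genes, and 14 (50%) were higher at an unadjusted p under 0.05 and 0 lower, against 11.7% of all genes in each direction. Both MT1-MMP siRNA arrays lay above both alpha3 siRNA arrays for 15 of the 28 (53.6%, against 28% of all genes) and below them for 0 (against 25.9%). The 14 were 6 chains (COL4A5, COL6A1, COL6A2, COL6A3, COL13A1 and COL18A1) and 8 processing genes (P4HA1, P4HA2, P4HB, PLOD2, LOX, LOXL1, LOXL2 and BMP1). The count was 8 without MT1-MMP siRNA replicate 1 and 9 without alpha3 siRNA replicate 2, and the median was 0.25 over all 45 genes without the filter.

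The next lowest adjusted p-values of this comparison were those of COL13A1 (log2 fold change 0.94, SE 0.20, limma adjusted p = 0.0543) and COL4A5 (1.16, SE 0.24, adjusted p = 0.0544). COL18A1 (1.04, SE 0.25) and LOXL1 (1.43, SE 0.36) followed with adjusted p-values of 0.0725 and 0.0733. The log2 fold changes of LOX (1.63, SE 0.60), P4HA2 (1.56, SE 0.49) and PLOD2 (1.49, SE 0.47) were as large as that of P4HA1, but their arrays varied more within groups, and their adjusted p-values lay between 0.113 and 0.156. Without MT1-MMP siRNA replicate 1 PLOD2 was at 0.90 and P4HA2 at 1.02, and without alpha3 siRNA replicate 2 P4HA2 was at 0.87. On their brightest probe sets the 3 collagen VI chains differed by nearly the same amount, with 0.66 for COL6A1, 0.67 for COL6A3 and 0.71 for COL6A2. However, the 3 probe sets of COL6A1 above the filter gave 0.25 to 0.66, and the other probe set of COL6A2 gave -0.06. The collagen I chains were at -0.33 for COL1A1 and 0.17 for COL1A2, where a p that misses the threshold does not show equal levels.

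**Figure D3:**
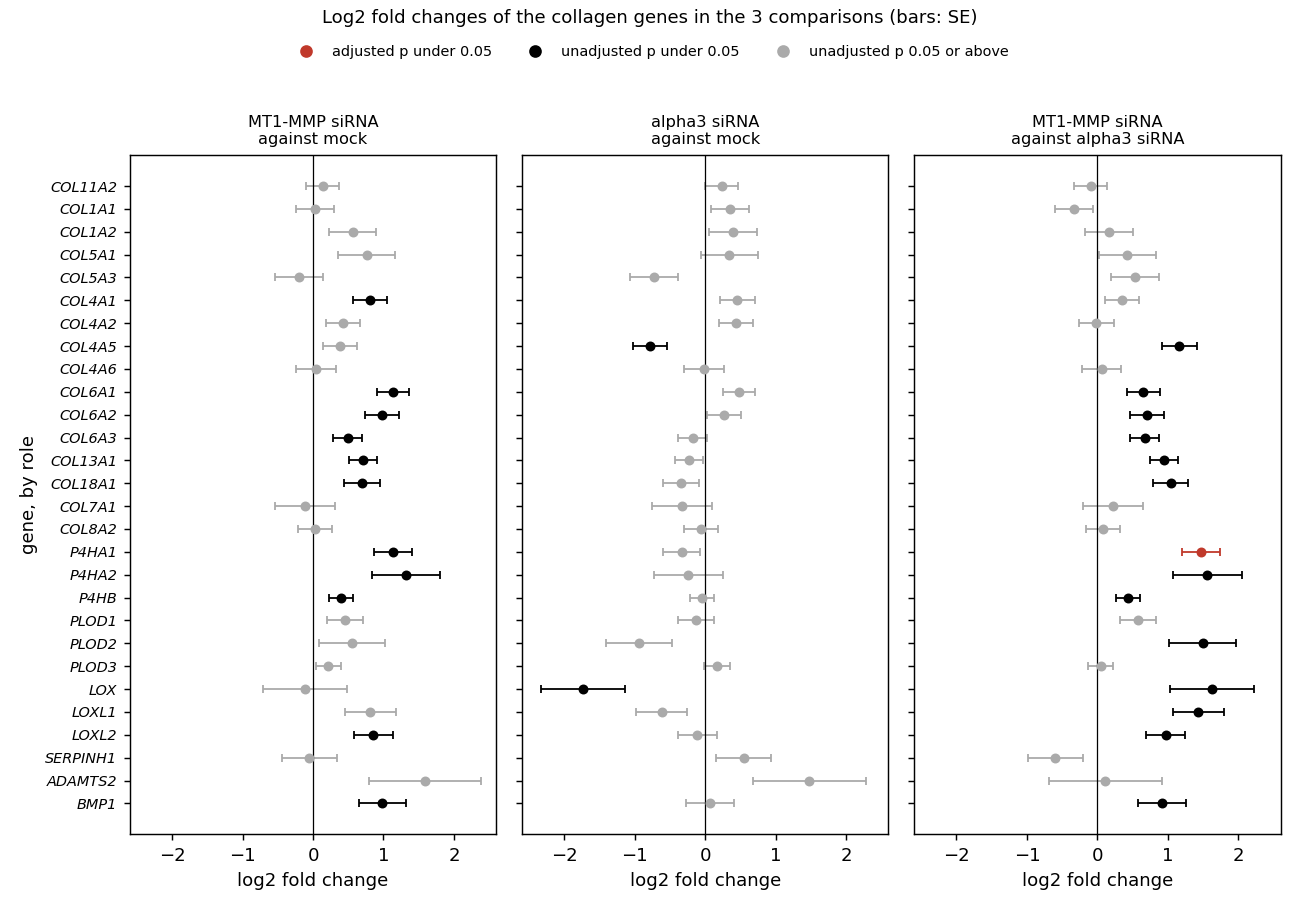
Log2 fold changes (points) with their SE (bars) from limma for the 28 collagen genes in the 3 comparisons, ordered by role, with red for an adjusted p under 0.05, black for an unadjusted p under 0.05 and grey for the others. With MT1-MMP siRNA against mock 11 genes are black and all lie right of 0, with alpha3 siRNA against mock COL4A5 and LOX are black and lie left of 0, and between the siRNAs P4HA1 is red at 1.47.

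P4HA1, P4HA2, PLOD2 and LOX, chosen after their values were seen because they had the largest log2 fold changes between the 2 siRNA groups, belong to the processing genes known to be induced by hypoxia. Hypoxia-inducible factors bind DNA at a core written ACGTG or GCGTG, which was searched on both strands of RefSeq's promoter windows (250 bases before to 50 after the start, GRCh38.p14), available for 34 of the 45 genes. At least 1 of the 2 cores was in 16 of these 34 windows (47.1%), against 48.4% of 27305 genes, so the collagen genes as a whole were near the share of all genes. ACGTG alone was in 7 of the 34 (20.6%), against 21.6% of all genes. Of the 6 hypoxia-inducible processing genes (P4HA1, P4HA2, PLOD1, PLOD2, LOX and LOXL2), 5 had a window and 4 of these held a core. The 250 bases before the start of the 4 genes are shown with matches to either core in capitals on the gene's own strand, where CACGT is ACGTG read from the other strand. P4HA1 lies at chr10:73096867-73097116, P4HA2 at chr5:132227092-132227341, PLOD2 at chr3:146161185-146161434 and LOX at chr5:122078260-122078509, all on the minus strand.
P4HA1: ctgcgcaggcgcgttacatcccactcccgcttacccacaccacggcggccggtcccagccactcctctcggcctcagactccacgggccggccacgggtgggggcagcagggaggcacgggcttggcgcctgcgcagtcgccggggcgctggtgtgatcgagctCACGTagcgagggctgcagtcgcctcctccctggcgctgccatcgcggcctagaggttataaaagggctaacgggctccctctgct
P4HA2: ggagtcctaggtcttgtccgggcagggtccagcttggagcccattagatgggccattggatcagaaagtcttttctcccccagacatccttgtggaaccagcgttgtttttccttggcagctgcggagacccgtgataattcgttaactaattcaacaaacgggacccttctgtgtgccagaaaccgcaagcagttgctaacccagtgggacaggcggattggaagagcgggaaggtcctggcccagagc
PLOD2: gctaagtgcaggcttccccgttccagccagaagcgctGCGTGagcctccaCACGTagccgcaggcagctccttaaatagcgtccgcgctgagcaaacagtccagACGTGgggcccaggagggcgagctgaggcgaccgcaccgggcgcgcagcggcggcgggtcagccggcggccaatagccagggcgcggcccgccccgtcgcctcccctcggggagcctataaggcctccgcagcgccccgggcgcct
LOX: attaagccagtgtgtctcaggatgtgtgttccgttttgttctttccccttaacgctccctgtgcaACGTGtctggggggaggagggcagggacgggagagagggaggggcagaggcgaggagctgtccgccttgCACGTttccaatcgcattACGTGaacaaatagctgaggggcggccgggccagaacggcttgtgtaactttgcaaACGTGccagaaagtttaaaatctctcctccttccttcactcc
P4HA1 held 1 match, PLOD2 held 3, LOX held 4 and P4HA2 held 0 in these windows. A match describes letters and not a bound site, and no match says only that the letters are not in this window.

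The 6 hypoxia-inducible processing genes were all below 0 with alpha3 siRNA against mock (median log2 fold change -0.29). With MT1-MMP siRNA against mock 5 of 6 were above 0 (0.71). All 6 were above 0 between the siRNAs (1.48), with no overlap of the arrays in any of the 6 on their brightest probe sets. The other probe set of LOXL2 above the filter overlapped there (879 and 616 under MT1-MMP siRNA, 643 and 192 under alpha3 siRNA). Of all genes 51.9% were above 0 between the siRNAs and 28% were higher with no overlap, and the 6 genes were listed together with earlier results of this comparison known. Genes of glycolysis and hypoxia outside the collagen genes lay in the same directions. Of 27 such genes above the filter, 27 were above 0 with MT1-MMP siRNA against mock (median 0.44), 24 were below 0 with alpha3 siRNA against mock (-0.38), and 27 were above 0 between the siRNAs (0.85, against 51.9% of all genes above 0), where 4 were called (against 1.39% of all genes). GBE1, the glycogen branching enzyme, had 1258 and 1239 in mock, 2623 and 2126 under MT1-MMP siRNA, and 935 and 824 under alpha3 siRNA (log2 fold change between the siRNAs 1.40, limma adjusted p = 0.0232). The glucose transporter SLC2A3 (1.71, limma adjusted p = 0.0289) and the stress gene NDRG1 (2.46, adjusted p = 0.0351) were also called. All 3 calls were lost without MT1-MMP siRNA replicate 1, without replicate 2 of that group and without alpha3 siRNA replicate 2 (adjusted p from 0.0669 to 0.242), and that of NDRG1 also without alpha3 siRNA replicate 1 (0.0531). The part of these genes' difference in that of the collagen genes was not tested.

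On single arrays, the median of the 6 hypoxia-inducible processing genes, relative to each gene's mean over the 6 arrays, was -0.36 and 0.03 in mock, 0.92 and 0.36 under MT1-MMP siRNA, and -0.15 and -1.15 under alpha3 siRNA. The glycolysis and hypoxia genes had -0.12 and 0.06, 0.59 and 0.27, and -0.20 and -0.55. Both lists were highest on MT1-MMP siRNA replicate 1 and lowest on alpha3 siRNA replicate 2. The 16 chains had -0.18 and -0.06, 0.43 and 0.30, and 0.03 and -0.18, a narrower range. The other 6 processing genes had -0.25 and -0.11, 0.61 and 0.20, and 0.11 and -0.37. For chains and both sets of processing genes, MT1-MMP siRNA replicate 1 was highest, replicate 2 of that group was next, and both lay above the 4 other arrays.

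**Figure D4:**
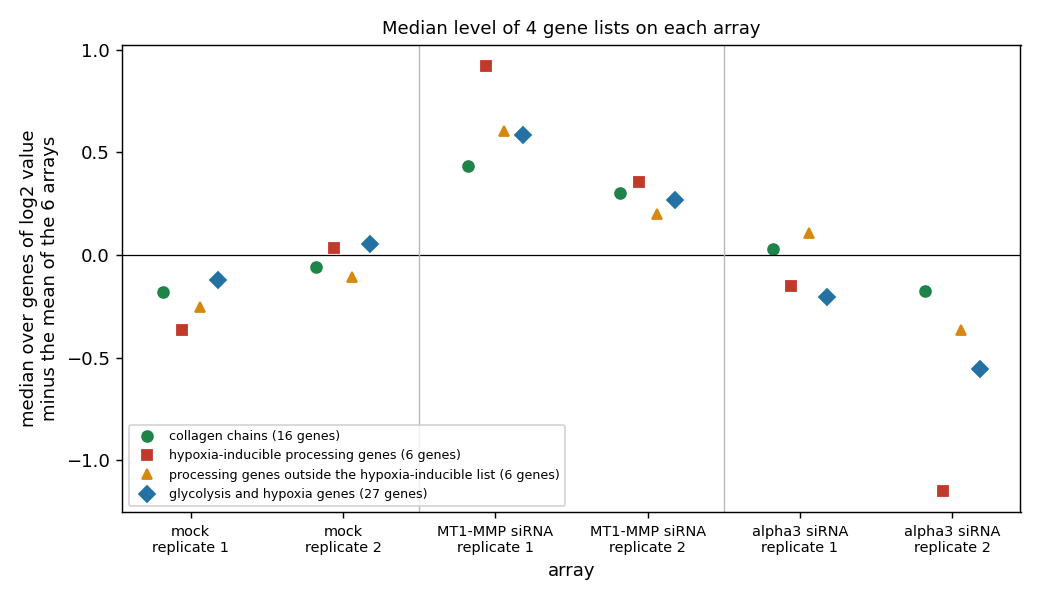
Median over genes of the log2 value minus the gene's mean over the 6 arrays, for 4 gene lists on each array, with 1 marker shape per list. The hypoxia-inducible processing genes range from -1.15 on alpha3 siRNA replicate 2 to 0.92 on MT1-MMP siRNA replicate 1, and the collagen chains from -0.18 to 0.43.

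Other genes of the collagen pathway are described by their counts. Of 22 further folding, modification and secretion factors above the filter, 16 were above 0 with MT1-MMP siRNA against mock (median log2 fold change 0.26), 16 with alpha3 siRNA against mock (0.11) and 12 between the siRNAs (0.10), with 0 called in each. CREB3L1, a membrane-bound transcription factor of collagen genes, had 16.2 and 66.0 in mock, 212 and 131 under MT1-MMP siRNA, and 394 and 286 under alpha3 siRNA (alpha3 siRNA against mock 2.42, SE 0.36, limma adjusted p = 0.143), but its 2 probe sets averaged gave 1.48 (adjusted p = 0.813). PCOLCE2, a relative of PCOLCE, had 66.4 and 123, 31.3 and 65.3, and 153 and 207, with a difference between the siRNAs of the opposite sign (-1.42, SE 0.32, limma adjusted p = 0.0603). PDIA3, a disulfide isomerase related to P4HB, had 1831 and 2037, 2974 and 2563, and 1465 and 1572 (between the siRNAs 0.85, limma adjusted p = 0.0538).

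All 7 collagen receptors and uptake genes above the filter were above 0 with MT1-MMP siRNA against mock (median 0.72), 2 with alpha3 siRNA against mock (-0.32) and 6 between the siRNAs (0.67), with 0 called in each. The collagen-binding integrin chain ITGA10 (between the siRNAs 1.92, limma adjusted p = 0.0552) and the collagen uptake receptor MRC2 (1.36, adjusted p = 0.0758) had the lowest p-values there, while the common collagen-binding partner ITGB1 had its lowest with MT1-MMP siRNA against mock (0.72, adjusted p = 0.176). MRC2 was at 0.85 without MT1-MMP siRNA replicate 1. Of 12 collagen-binding matrix proteins, 10, 5 and 9 were above 0 in the 3 comparisons in that order (medians 0.56, -0.02 and 0.47). NID2, a nidogen that links laminin to collagen IV, was called between the siRNAs, with 116 and 82.6 in mock, 235 and 201 under MT1-MMP siRNA, and 59.2 and 53.5 under alpha3 siRNA (2.83-fold, limma adjusted p = 0.0289). Its call was lost on leaving out any of the 4 siRNA arrays (adjusted p from 0.0548 to 0.203). SPARC, a collagen-binding glycoprotein, had 3189 and 3287, 8295 and 5052, and 4199 and 3063 (MT1-MMP siRNA against mock 0.99, limma adjusted p = 0.180), a value of 0.64 once MT1-MMP siRNA replicate 1 was left out. THBS1, a thrombospondin, was at 1.81 with alpha3 siRNA against mock (adjusted p = 0.280) and was called without alpha3 siRNA replicate 2 (2.34, limma adjusted p = 0.0323). Of 5 collagenases and gelatinases above the filter, MMP14 itself was at -1.65 with its siRNA (SE 0.31, limma adjusted p = 0.139), while MMP2 (1.09, adjusted p = 0.102) and the collagen-degrading cathepsin CTSK (0.68, adjusted p = 0.132) had their lowest p between the siRNAs, MMP2 at 0.65 without alpha3 siRNA replicate 2.

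The 17 dim genes were 16 chains and PCOLCE, with signals between 1.7 and 67.2 on any array, against the filter at 47.5. They were all 7 fibril-associated chains on the array (COL9A1, COL9A2, COL9A3, COL14A1, COL16A1, COL19A1 and COL21A1), the fibrillar chains COL2A1, COL3A1, COL5A2 and COL11A1, the collagen IV chains COL4A3 and COL4A4, and COL8A1, COL10A1 and COL15A1. The brightest were COL9A2 (mean signal 46.6), the hypertrophic cartilage chain COL10A1 (42.1) and COL5A2 (40.4), and 7 of the 17 were above the filter on at least 1 array. COL9A2 was just below the filter, at a mean log2 value of 6.28, and COL8A2 just above it, at 6.34. COL5A2 had 43.8 and 47.3 in mock, 52.2 and 30.9 under MT1-MMP siRNA, and 32.1 and 36.3 under alpha3 siRNA. COL3A1 had 36.4 and 20.7, 30.3 and 18.5, and 4.5 and 38.0, and all of its 4 probe sets were below the filter. Differences between group means of the dim genes ran from -0.43 to 0.47 on the log2 scale over the 3 comparisons, a scale that leaves little room for larger ones at these signals. The arrays did not overlap for 2 of the 17 with MT1-MMP siRNA against mock, against 24.6% higher and 25.3% lower of all genes tested. This held for 3 with alpha3 siRNA against mock (all genes 16.4% higher and 18% lower) and 5 between the siRNAs (28% and 25.9%). COL19A1, for example, had 20.3 and 26.1 in mock, 39.9 and 39.4 under MT1-MMP siRNA, and 28.1 and 20.1 under alpha3 siRNA, and was chosen after its values were seen. With MT1-MMP siRNA against mock 8 of the 17 were above 0 and 8 below, beside the 24 of 28 brighter genes above 0. With no filter, where the dim genes entered the fit, limma called 0 of the 45 genes in each comparison. Of the 45, 9, 2 and 14 had an unadjusted p under 0.05 in that fit. In the filtered fit 14.4%, 5.73% and 23.4% of all genes tested had such a p in either direction.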

How the data were processed

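RNA of 6 HT1080 samples was hybridised to 1-colour oligonucleotide arrays (22283 probe sets), and groups come from the sample titles. The values are the intensity per probe set as the authors deposited it. The deposited intensities had been scaled to a common level, since the mean over the central 96% of values was 250.1 on all arrays. Which software summarised them is not stated in the labels. Replicate arrays of a group held equal values on at most 78 probe sets.

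Of the probe sets, 19065 had 1 gene symbol in the platform annotation and were used. Left out were 1043 of several symbols, 68 controls and those without a symbol. Signals under 1 were set to 1 and log2(signal + 32) was taken. Only probe sets whose mean exceeded the 40th percentile (6.31 in log2, or a signal of 47.5) entered, and each gene was represented by its brightest, which left 8045 genes. A model of 3 group means was fitted to the 6 arrays together with limma 3.58.1 (R 4.3.3; lmFit, eBayes with an intensity trend, 3 residual and 5.35 prior degrees of freedom), and adjusted p-values are Benjamini-Hochberg values over all 8045 genes in each comparison. The fit was tested on simulated data. SDs are of the signal over 2 arrays, and SEs are of the log2 fold change. An exact permutation test of 2 arrays against 2 cannot go below p = 0.333, so none was run.

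The collagen genes, the lists and the tests were chosen with earlier results of these data known. By the rule for named genes, signals on all arrays are given for genes with an unadjusted p under 0.05 in any comparison, for 10 fixed chains and for the processing genes, and others by range. Up to 3 genes of each other list with the lowest p were named. Promoter sequences come from RefSeq (GRCh38.p14), matched by symbol, using the first window of each gene. Figures were drawn with matplotlib 3.10.9.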

Additional observations from a re-analysis of the deposited data

How the results depend on the processing

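Alternatives changed the scaling (quantiles, or the 75th percentile), the offset (1 or 100), the filter (none, or the 60th percentile), the probe sets (averaged per gene, or each on its own), the trend, the arrays fitted (2 groups, or all but 1 array) and the replicate block. With MT1-MMP siRNA against mock 0 collagen genes were called in any of them. The median of 0.52 was 0.30 without a filter and 0.32 to 0.72 on leaving out 1 array, and the 11 genes at an unadjusted p under 0.05 became 4 to 12. With alpha3 siRNA against mock the median ran from -0.21 to 0.22 and the called genes from 0 to 1 on leaving out 1 array. The 2 genes at an unadjusted p under 0.05 became 0 to 6, and were 1 with a filter at the 60th percentile, 5 of 43 probe sets with every probe set and 4 with only the 2 groups. Between the siRNAs the 1 call was lost with an offset of 1, without a filter and without the trend (0 called each, of 69, 22 and 72 genes called in all, against 112), and ranged from 0 to 1 on leaving out 1 array. The median was 0.25 without a filter and 0.44 to 0.72 on leaving out 1 array, and the 14 genes became 8 to 15. With only the 2 groups 1 gene was called too, but it was LOXL1 (adjusted p = 0.0473) and not P4HA1 (0.0636), and the same switch to LOXL1 occurred without mock replicate 1 (0.0476) and without mock replicate 2 (0.0468). With a filter at the 60th percentile 178 genes were called, COL13A1 among them (0.0477), as were PDIA3 (0.0475) and ITGA10 (0.0488), and PCOLCE2 was with the replicate block (0.0316). Without a filter the calls of NID2 (0.0662), SLC2A3 (0.06) and NDRG1 (0.0701) were lost, that of NDRG1 also without the trend (0.0518). With an offset of 100 PCOLCE2 was at -0.92 and CTSK at 0.45. ADAMTS2 with alpha3 siRNA against mock ranged from -0.074 to 3.027 on leaving out 1 array, the lower value without alpha3 siRNA replicate 1. Same-numbered arrays do not share a known culture or day. Their deviations from the group means correlated at -0.18 (mock with each siRNA group) and 0.13 (the siRNA groups). With 2 arrays per group, these correlations cannot show whether the numbers pair the arrays. With the replicate block, 0, 0 and 1 collagen genes were called in the 3 comparisons, of 11, 4 and 114 genes in all (0, 2 and 112 without it), with medians of 0.52, -0.05 and 0.55 and 13, 3 and 13 genes at an unadjusted p under 0.05. The cause of these changes was not tested. Signal limits what can be seen, since 17 of the 45 genes were dim.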
